A study of Mus musculus with 3 samples.

Results

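The tricarboxylic acid (TCA) cycle genes Cs, Idh3a, Idh3b, Idh3g, Ogdh, Dlst, Suclg1, Fh1 and Mdh2 were examined for nearby HIF1α peaks in the embryonic mouse heart. They are 9 of 21779 protein-coding genes on the nuclear chromosomes, taken by name as enzymes and subunits of the cycle. The rule for taking them used no measured value, but earlier results of these data were known when they were chosen. They are called the cycle genes here, and other enzymes and subunits of the cycle are counted separately. Chromatin came from whole hearts of wild-type Black-Swiss embryos at E12.5, the embryonic day of dissection. There were 2 HIF1α pulldown libraries and 1 input library, which is chromatin sequenced without immunoprecipitation. A whole heart mixes muscle, endocardial, epicardial and blood cells, and a peak cannot be assigned to any of them. The labels do not say whether the pulldowns came from separate pools of embryos.

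The authors deposited 17289 merged peaks, placed on the mm10 build, of which 15300 came from 1 call and 1989 from 2 merged calls. A peak of 2 calls is the nearest the list comes to a repeated observation. The whole-number score of each peak is the authors' own and was used only to describe and rank peaks within the list. All peaks in the list scored at least 2. Read depth is unknown from this list and no value exists per library, so the values carry no replicate error. Because the genes were taken up with earlier results of these data known, no test was run on them, and the counts of cycle genes near a peak stand beside the same share over the other 21770 coding genes.

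The TCA cycle runs in the mitochondrial matrix, where it oxidises acetyl groups to carbon dioxide and passes electrons to the respiratory chain. HIF1α is the oxygen-regulated partner in a dimer that activates genes of glycolysis, and it is known to raise pyruvate dehydrogenase kinase, which holds pyruvate back from the cycle. The fetal heart lives at low oxygen and relies strongly on glycolysis, with a shift towards mitochondrial oxidation after birth. The design asks which loci HIF1α binds in this tissue, and for these genes the question is whether the cycle's own enzymes lie at such loci.

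The cycle genes had HIF1α peaks nearby about as often as other coding genes. A window reaching from 50 kb before to 50 kb after each gene held 8 peaks in all, around 6 of the 9 genes (66.7%, exact 95% Clopper-Pearson interval 29.9 to 92.5%). The share of other coding genes with such a peak was 64.8%. All 8 peaks were of 1 call, with scores of 2 to 4. Over the whole list, 88.5% of peaks were of 1 call and 92.5% scored 4 or lower. Of the 8 peaks, 0 lay inside a cycle gene, a count for which no share of other coding genes is given. With peaks inside a gene or within 5 kb of it counted together, the share was 22.2% of cycle genes, against 32.7% of other coding genes. Idh3b and Idh3g had a peak within 5 kb of a gene end, which is 2 of 9 (22.2%, interval 2.81 to 60.0%), against 24.0% of other coding genes. Within 1 kb the members were the same 2, against 16.2% of other coding genes. The shares in the 50 kb windows and near gene ends lie close to the background. The intervals, which treat genes as independent and cover counting error only, are wide.

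None of the 9 cycle genes lay near a peak of 2 calls. This holds for the 9 and not for the whole cycle. Of 8 other cycle enzymes and subunits, described below, 3 (37.5%) had such a peak in the 50 kb window. In the 50 kb windows the count was 0 of 9 (interval 0.0 to 33.6%), against 21.4% of other coding genes. At 5 kb from a gene end it was again 0 of 9, against 7.73%, and at 1 kb 0 of 9, against 5.54%. With 9 genes a count of 0 allows a share as high as these backgrounds. The nearest peak of 2 calls was 140 kb from Idh3b, 241 kb from Dlst and 267 kb from Ogdh. For the other 6 genes it lay between 606 kb (Idh3g) and 886 kb (Fh1). The median over the 9 genes was 610 kb, against 270 kb over other coding genes.

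**Figure D1:**
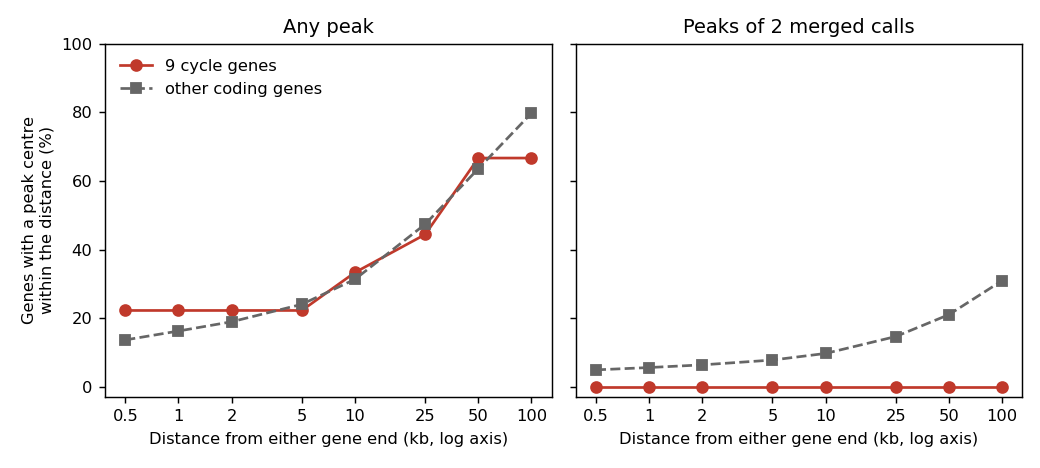
Share of genes (y axis, percent) with a peak centre within a given distance of either gene end (x axis, kb, log axis), for the 9 cycle genes (circles) and the other coding genes (squares), with any peak on the left and peaks of 2 merged calls on the right. For any peak the cycle genes stand at 22.2% against 13.6% at 500 bp, 22.2% against 24.0% at 5 kb and 66.7% against 79.8% at 100 kb. For peaks of 2 calls the cycle genes stay at 0% up to 100 kb, where other coding genes reach 30.9%.

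Peak density was compared in the same windows, and the median score was set against the whole list. The windows of the cycle genes covered 1.11 Mb and held 7.2 peaks per Mb, against 8.55 peaks per Mb over the windows of other coding genes. The median was 1.0 peak per window in cycle genes and 1.0 in the others. The cycle genes had a median length of 23270 bp, against 17208.5 bp for the others, and a median of 3.0 other coding genes in the window in each case. The median score was 3.0 over the 8 peaks and 2.0 over the whole list, of which 92.5% scored 4 or lower. The whole list includes peaks far from genes. In the 50 kb windows, 44.4% of cycle genes had a peak scoring at least 3, against 47.7% of other coding genes. For scores of at least 4 the shares were 22.2% and 26.5%.

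Citrate synthase, encoded by Cs, joins acetyl-CoA to oxaloacetate and so opens the cycle. Cs (chromosome 10, 128337727 to 128362482) had 2 peaks in its window, both far from the gene. The closer one scored 4 and lay 34.7 kb upstream (chromosome 10, 128303021 to 128303121), 264 bp before the annotated start of Pan2, a subunit of an mRNA deadenylase. The other scored 3 and lay 47.2 kb downstream of Cs, inside Nabp2, whose product binds single-stranded DNA. Cs thus has peaks in its window that sit at its neighbours. That window is crowded, with 9 other coding genes, the most for any of the 9 cycle genes.

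NAD-dependent isocitrate dehydrogenase makes 2-oxoglutarate and is built from a catalytic subunit, Idh3a, and the subunits Idh3b and Idh3g. The 3 genes differed in their peaks. Idh3b (chromosome 2, 130279309 to 130284451) had 1 peak, of score 4, centred 51 bp upstream of its annotated transcription start (chromosome 2, 130284452 to 130284552). It was the only one of the 8 peaks within 5 kb of a cycle gene that had no other coding gene closer. Idh3g (chromosome X, 73778963 to 73786897) had 1 peak, of score 2, the lowest in the list, centred 131 bp upstream of its start (chromosome X, 73786978 to 73787078). That peak lies 5 bp downstream of the start of Ssr4, a translocon-associated protein gene transcribed on the opposite strand, so the 2 genes share it. Idh3a (chromosome 9, 54586511 to 54604662) had 0 peaks in its window. Its nearest peak scored 3 and lay 104 kb away.

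The positions of the Idh3b and Idh3g peaks can be set against the list as a whole. Of 3310 peaks within 1 kb of a coding gene end, 31.2% were of 2 calls and 78.3% scored 4 or lower. Over the whole list, 88.5% were of 1 call and 92.5% scored 4 or lower, so both are less frequent at gene ends. Among peaks of 1 call at any position, 5.75% scored exactly 4, as the Idh3b peak did, and 62.5% scored 2, as the Idh3g peak did. Score 2 was less usual at gene ends. Within 1 kb of an end, 16.2% of other coding genes had any peak. A peak scoring at least 3 lay there for 14.3%, and one scoring at least 4 for 7.88%. Counting transcription starts alone, 2 of the 8 cycle genes with an annotated start had a peak within 1 kb, against 16.6% of other coding genes. Peaks are scarcer on chromosome X. Of 962 other X-linked coding genes, 9.56% had a peak within 5 kb of an end and 6.34% within 1 kb.

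The promoters of Idh3b and Idh3g, which carry these 2 peaks, are shown here as RefSeq gives them on GRCm38.p6, the same build as mm10. Each runs from 250 bases before the annotated start to 50 bases after it, 5′ to 3′ along the gene. The Ogdh promoter, which holds core motifs and no peak, and that of the pyruvate dehydrogenase kinase gene Pdk1, with a strong peak, are shown for comparison. Capitals mark matches to the core of the hypoxia response element, searched as ACGTG or GCGTG on both strands, so that a match on the other strand reads CACGT or CACGC. Matches of opposite strands overlap where CACGTG occurs, and each is then counted.
Idh3b (chr2:130284402-130284701, minus strand): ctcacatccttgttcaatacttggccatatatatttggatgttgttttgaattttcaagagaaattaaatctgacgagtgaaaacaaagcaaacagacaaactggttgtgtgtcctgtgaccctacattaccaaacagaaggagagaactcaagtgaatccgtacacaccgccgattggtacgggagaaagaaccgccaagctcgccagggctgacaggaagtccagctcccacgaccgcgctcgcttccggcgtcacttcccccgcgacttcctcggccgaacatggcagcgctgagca
Idh3g (chrX:73786848-73787147, minus strand): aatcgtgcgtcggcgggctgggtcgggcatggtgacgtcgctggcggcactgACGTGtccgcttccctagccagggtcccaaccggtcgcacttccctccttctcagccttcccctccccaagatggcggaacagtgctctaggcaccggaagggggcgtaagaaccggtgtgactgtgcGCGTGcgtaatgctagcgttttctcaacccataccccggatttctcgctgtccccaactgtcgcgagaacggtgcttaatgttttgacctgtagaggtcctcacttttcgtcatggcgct
Ogdh (chr11:6291347-6291646, plus strand): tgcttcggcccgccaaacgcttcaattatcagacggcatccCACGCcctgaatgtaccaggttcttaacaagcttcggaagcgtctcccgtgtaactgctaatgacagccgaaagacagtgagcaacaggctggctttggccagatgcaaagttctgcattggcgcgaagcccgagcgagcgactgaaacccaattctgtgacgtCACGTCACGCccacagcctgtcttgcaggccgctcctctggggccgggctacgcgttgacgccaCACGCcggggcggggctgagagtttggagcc
Pdk1 (chr2:71872974-71873273, plus strand): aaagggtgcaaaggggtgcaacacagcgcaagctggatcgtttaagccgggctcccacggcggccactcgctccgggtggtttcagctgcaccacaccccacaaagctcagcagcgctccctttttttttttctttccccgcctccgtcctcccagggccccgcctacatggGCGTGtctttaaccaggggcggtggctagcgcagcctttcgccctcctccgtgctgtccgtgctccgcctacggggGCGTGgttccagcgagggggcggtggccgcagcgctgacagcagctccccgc

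No core match lay inside the part of a peak that falls within these promoter windows. Sequence beyond the windows was not searched, and matches close to a peak edge are given with their positions. The Idh3b window holds 0 matches, and its peak covers bases 150 to 250, up to the last base before the start. The Idh3g window holds 2 matches, at bases 53 to 57 and 181 to 185. Its peak covers bases 70 to 170, so that 1 match lies just before it and 1 just after it. The most upstream of the 6 annotated Ogdh promoters holds 4 matches on the other strand, and 0 peaks overlap it. In Pdk1 the matches are at bases 173 to 177 and 249 to 253, and the peak, of 2 calls and score 59, begins at base 254 and runs on past the window. A match is a short run of letters and is not by itself a binding site.

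Of the 8 cycle genes with a promoter entry, 5 (62.5%) held the core in the most upstream promoter, namely Idh3g, Ogdh, Suclg1, Fh1 and Mdh2. Suclg1 had 3 matches, Fh1 had 2 and Mdh2 had 1, none of them with a peak in the window. Cs and Dlst held 0 matches, like Idh3b. Idh3a has no entry in the promoter table used. Among the most upstream promoters of 17484 other coding genes, 49.2% held the core. Across all 21263 promoters of coding genes, several for some genes and the cycle genes included, the share was 49.3%. It was 81.9% of the 696 with the centre of a peak of 2 calls, 73.6% of the 1111 with a peak of 1 call and 46.8% of the 19456 with no peak centre. The core contains the pair CG, and the cycle gene promoters held a median of 21.5 such pairs, against 13.0 over the most upstream promoters of the other coding genes. The part of CG content in these shares was not tested.

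**Figure D2:**
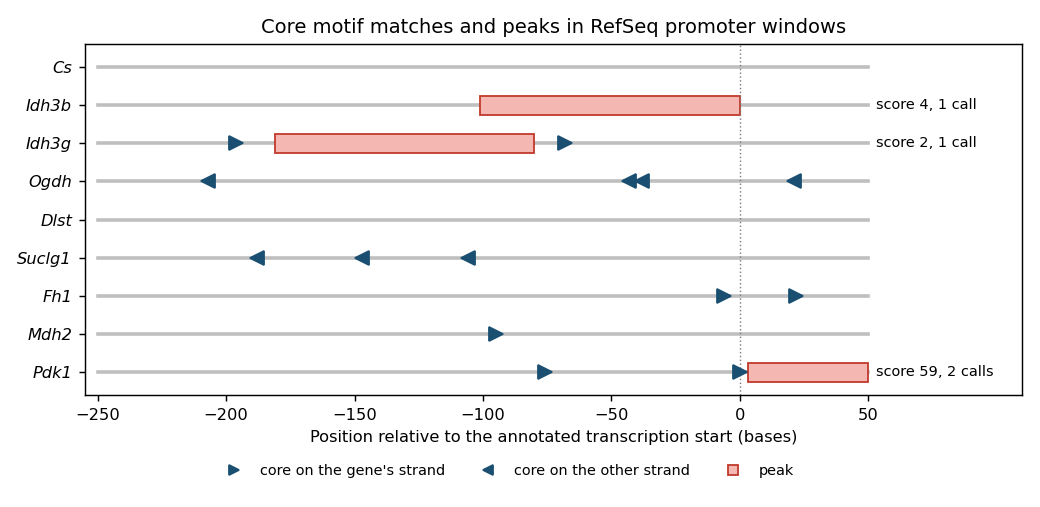
Matches to the core motif (triangles, pointing right on the gene's own strand and left on the other) and peaks (boxes) in the most upstream RefSeq promoter of 8 cycle genes and, at the bottom, of Pdk1. The x axis is the position in bases relative to the annotated transcription start. The Idh3b peak has 0 matches in its window, the Idh3g peak lies between 2 matches, and the Ogdh, Suclg1, Fh1 and Mdh2 windows hold matches and no peak.

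The 2-oxoglutarate dehydrogenase complex turns 2-oxoglutarate into succinyl-CoA. Its first component, Ogdh, and its succinyltransferase, Dlst, are cycle genes examined here. Ogdh (chromosome 11, 6291597 to 6359094), at 67498 bp the longest of the 9, had 2 peaks, both past its 3′ end. The nearer scored 2, lay 7.05 kb beyond the end (chromosome 11, 6366098 to 6366198) and had Ogdh as its nearest coding gene. The farther scored 3, lay 29.9 kb beyond the end and fell inside Zmiz2, 176 bp from an end of that gene. No peak lay in the Ogdh promoters or gene body. Dlst (chromosome 12, 85110822 to 85134091) had 0 peaks in its window, and its nearest peak scored 2 at 124 kb.

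The remaining 3 enzymes carry succinyl-CoA, fumarate and malate through the last steps. Suclg1 (chromosome 6, 73248505 to 73276907), the alpha subunit of succinyl-CoA ligase, had 1 peak of score 2 at 25.1 kb upstream (chromosome 6, 73223348 to 73223448). Its nearest coding gene was Dnah6, a dynein heavy chain gene, at 1171 bp. Fh1 (chromosome 1, 175601378 to 175625635), the fumarase gene, had 0 peaks in its window. Its nearest peak, of score 2, lay 255 kb away, the greatest distance among the 9. Mdh2 (chromosome 5, 135778649 to 135790386), the mitochondrial malate dehydrogenase gene that regenerates oxaloacetate, had 1 peak of score 3 at 16.4 kb beyond its 3′ end (chromosome 5, 135806754 to 135806854). That peak lies 56 bp from an end of Srrm3.

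Thus 6 of the 8 peaks had another coding gene nearer than the cycle gene whose window they fell in. Only the Idh3b peak and the Ogdh peak at 7.05 kb were nearest to the cycle gene itself. With each peak given to its nearest coding gene alone, 2 of 9 cycle genes (22.2%) kept a peak, against 34.2% of other coding genes. The Cs peak at 47.2 kb was the last inside a window, and the first outside were peaks of 1 call and score 3 at 88.9 kb from Ogdh and 89.6 kb from Mdh2.

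**Figure D3:**
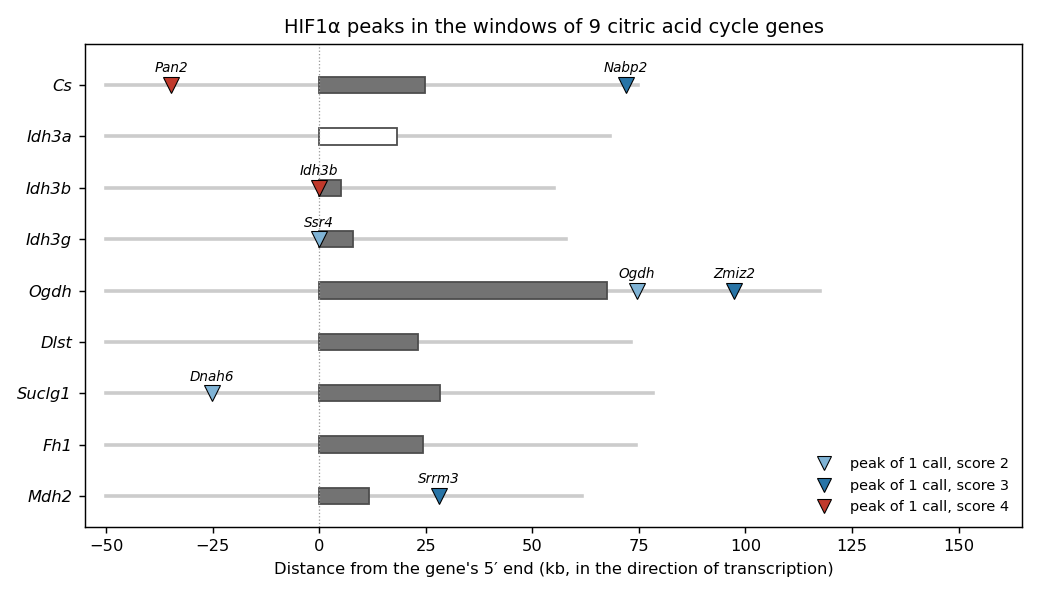
The windows of the 9 cycle genes, aligned at the 5′ end (x axis, kb in the direction of transcription; the open box of Idh3a is drawn from its lower coordinate). Boxes are genes, lines are the 50 kb on either side, and triangles are peaks coloured by score and labelled with the nearest coding gene. The 8 peaks score 2 to 4, and those of Idh3b and Idh3g sit at the 5′ end.

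Other genes of the pathway were counted in the same way. In a list of 27 further genes of the cycle, of pyruvate entry, of side entry points and of cytosolic counterparts, 6 (Dld, Pdhb, Mpc1, Pcx, Me2 and Acly) had a peak within 5 kb of an end. This is 22.2%, against 24.0% of coding genes outside the 9. Of the 27, 1 gene, Me2, had a peak of 2 calls there (3.7%, against 7.73%). In the 50 kb windows, 23 of the 27 had a peak (85.2%, against 64.8%) and 7 had a peak of 2 calls (25.9%, against 21.4%). Both shares in these windows are above those of the 9 cycle genes, 66.7% and 0.0%, and the difference was not tested. Some of the 27 are longer than any of the 9, up to 245850 bp against 67498 bp, and a longer gene has a longer window. The part of gene length in these shares was not tested. The highest score in the windows of the 27 was 9. The list was drawn up with earlier results of these data known, and its counts are descriptions.

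Among 8 other cycle enzymes and subunits, 7 had a peak in the window (87.5%, against 64.8% of coding genes outside the 9). A peak of 2 calls lay in the window of 3 (37.5%, against 21.4%), namely Idh2, Sucla2 and Sdhb. The strongest was at Idh2, the NADP-dependent mitochondrial isocitrate dehydrogenase gene, with a score of 9 at 15995 bp from its nearest end (chromosome 7, 80134553 to 80134653). Idh2 was the nearest coding gene to that peak. The Sdhb peak of 2 calls lay 152 bp from an end of Mfap2. Dld, the dihydrolipoamide dehydrogenase gene shared by several oxo-acid complexes, was the only one of these 8 with a peak within 5 kb, of 1 call and score 3 at 188 bp. Sdhc had 0 peaks in its window.

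At pyruvate entry, peaks at gene starts were of 1 call. The peak of Pdhb, a subunit of pyruvate dehydrogenase, scored 3 and was centred 72 bp past the annotated start. Mpc1, a subunit of the mitochondrial pyruvate carrier, had 2 peaks of score 3, at 212 and 477 bp before its start. Pdha1 and Mpc2 had 0 peaks in their windows. None of the 6 genes of this group had a peak of 2 calls in its window, against 21.4% of coding genes outside the 9. With so few genes, this count does not set the group apart. The peak counted for both Dlat, at 17418 bp, and Sdhd, at 13366 bp, was the same one, 106 bp from an end of Pih1d2.

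Side entry to the cycle held the strongest peak within 5 kb of an end in this list. Me2, a mitochondrial malic enzyme gene that turns malate into pyruvate, lay 214 bp from a peak of score 9, of 2 calls (chromosome 18, 73815591 to 73815713). Pcx, the pyruvate carboxylase gene that supplies oxaloacetate, had 3 peaks of 1 call within 5 kb. Those at its start scored 5 at 346 bp before it and 3 at 343 bp after it, and the third scored 3 and lay 81 bp from an end of Rce1. Among cytosolic counterparts, Acly, the ATP citrate lyase gene, had a peak of 1 call and score 3 at 3649 bp, which was 79 bp from an end of Klhl11. Mdh1, the cytosolic partner of Mdh2, had 0 peaks in its window.

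The HIF targets Ldha, Pdk1, Pgk1 and Eno1 stood far above all of these in score. These 4 genes were included because they are known targets, so the contrast is a description. Pdk1 had a peak of score 59 centred 55 bp past its annotated start, and Pgk1, the phosphoglycerate kinase gene, had one of 25 at 151 bp before its start. Eno1, an enolase gene, had one of 109 at 224 bp past its start. At Ldha, a lactate dehydrogenase gene, the peak scored 30 and lay 25 bp before an annotated start that is itself inside the gene. All 4 were of 2 calls. The lowest of these scores, 25, exceeds the highest score of 4 in the windows of the 9 cycle genes.

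**Figure D4:**
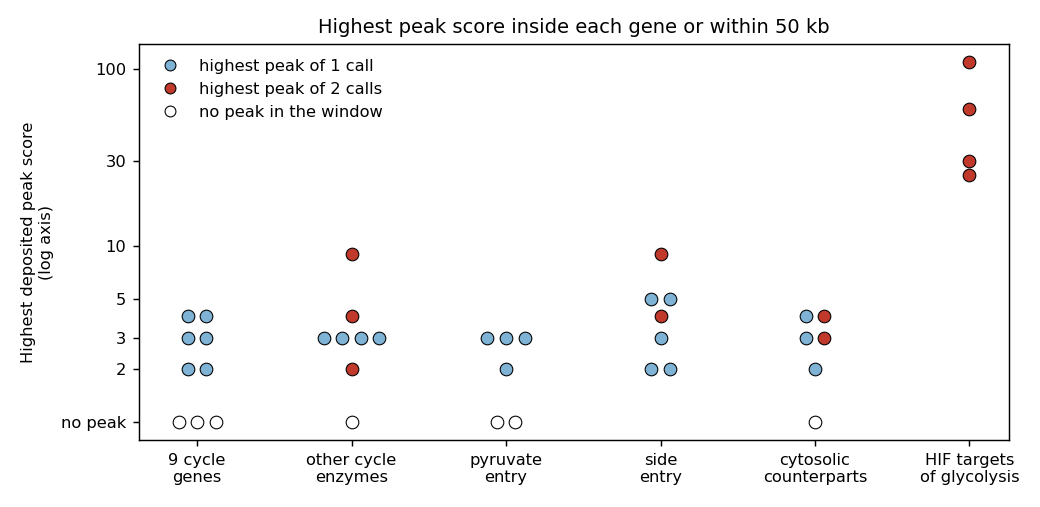
Highest peak score inside each gene or within 50 kb (y axis, deposited score, log axis) for the 9 cycle genes, 4 groups of other pathway genes and 4 known HIF targets. The last group is labelled as of glycolysis but includes the pyruvate dehydrogenase kinase gene Pdk1. Each point is a gene, coloured by whether its highest peak was of 1 or 2 calls, with open points for genes that have no peak. The cycle genes lie at 2 to 4 or without a peak, and the HIF targets at 25 to 109.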

How the data were processed

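Hearts were cross-linked with 1.5% formaldehyde for 10 minutes, and chromatin of about 200 bp was precipitated with 4 μg of an antibody against HIF1α, per the labels' protocols. Bowtie2, HOMER and the mm10 build are named in the submitters' processing notes, without versions. The deposited score is a whole number per merged peak of calls made on each pulldown against the same input, per the file headers. What it is relative to is not given in the sources used here, nor are the calling threshold and the merging rule. The last digit of each peak's name was taken as its number of merged calls; all peaks of 1 call are 101 bp wide. The pulldown behind a single call is not marked.

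Gene positions came from a RefSeq table of GRCm38.p6, without those that lie under 3 Mb (Y excepted). Transcription starts and strands came from RefSeq promoters, which cover 17492 coding genes. The table gives no exons, so peaks are not placed in exons or introns. Distances run from a peak's centre to the closer end of the gene. Those given before, past or downstream of a start run to the annotated transcription start instead. The genes, lists and windows were chosen with earlier results of these data known. By rule, named genes were all 9 cycle genes with their peaks, and pathway genes with a peak within 5 kb of an end. Idh2, Sucla2, Sdhb, Sdhc, Sdhd, Dlat, Pdha1, Mpc2 and Mdh1 fall outside that rule and were named after their values were seen. The 31 other pathway symbols looked up all matched (Mut as Mmut), and 1 further gene of that list is not reported here. Distance code was tested on simulated peaks. No set test was run. Analyses used Python 3.11.15, pandas 2.3.3 and SciPy 1.17.1.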

Additional observations from a re-analysis of the deposited data

How the results depend on the processing

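Of 31 alternatives, 13 gave a count within 1.5 times the main one and 18 a smaller count. Cycle genes with a peak inside or within 50 kb numbered 6; they were 2 with a window of 5 kb, 3 with 10 kb, 2 with scores of at least 4, 0 with peaks of 2 calls and 2 with peaks given to their nearest coding gene. The count within 5 kb of an end, 2, became 1 with scores of at least 3 or at least 4 and with nearest-gene assignment, and 0 with peaks of 2 calls. Within 1 kb it became 1 with scores of at least 3 or at least 4 and 0 with peaks of 2 calls. The 8 peaks became 2, 3 and 4 with windows of 5, 10 and 25 kb, 5 with scores of at least 3, 2 with scores of at least 4 and 0 with peaks of 2 calls. These settings remove peaks by construction. Background shares moved too: with scores of at least 4, for example, 22.2% of cycle genes and 26.5% of other coding genes had a peak in the 50 kb window. Limiting the background to genes in the length range of the cycle genes gave 65.6% in place of 64.8%. The merged list holds no values per pulldown, so leaving out a replicate was not an option. Nor was a paired analysis possible, for the same reason and because both pulldowns were called against the same input. With 9 genes, a share differing from the background by less than the wide intervals was not detectable.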
